A study of Capsicum annuum with 2 samples.

Results

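Peroxidases are haem enzymes that use hydrogen peroxide to oxidise other molecules. The large secreted class of plants, class III, oxidises phenolic compounds and cross-links lignin and wall proteins, and its members can both consume and generate reactive oxygen. In anthers, the timing of reactive oxygen is known from Arabidopsis and rice to be tied to the breakdown of the tapetum, the cell layer that feeds the developing pollen. The study of chili pepper (Capsicum annuum) took up active oxygen metabolism as a possible correlate of male sterility in plants, with an unknown influence on fertility, and counted peroxidases among the scavengers of active oxygen. Here 3 peroxidase unigenes of chili pepper anthers are described, of the 11387 unigenes listed in the deposited table. A unigene is a transcript sequence assembled from the reads. The members were chosen by annotation and by name, with their directions known: comp71609_c0_seq1, annotated as peroxidase, comp123766_c0_seq1, whose best match was a putative peroxidase 10 precursor of Ricinus communis, and comp126036_c0_seq1, whose best match was a peroxidase 55-like protein of Vitis vinifera. Peroxidase 10 and peroxidase 55 are names of class III enzymes in Arabidopsis. They are not all the peroxidases of these anthers: the study counted further peroxidase unigenes among those that differ, in both directions. It also reports catalase, superoxide dismutase and polyphenol oxidase unigenes that differ. These were not analysed here because only part of its annotation was used.

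The groups were a cytoplasmic male sterile (CMS) line, 121A, and a restorer line, 121C, that is near-isogenic to it. Both lines share the cytoplasm of the sterile parent and the nuclear background of an inbred line, and 121C also carries a dominant restorer gene from a further parent, with whatever is linked to it. For each line, anther RNA from buds of several phases and many plants was mixed into 1 library. There is therefore no replicate, and a difference between the libraries has no replicate check in the sequencing data. The study also measured comp71609_c0_seq1 by real-time RT-PCR. It reports a pattern like that of sequencing but a smaller change, and those values were not analysed here. In such mixed tissue, fewer cells of a type and less RNA per cell cannot be told apart.

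The RT-PCR primers of comp71609_c0_seq1 are the stretches of a member's sequence that were at hand, and they are shown because its annotation gives no class. They are written 5′ to 3′, with the last 5 bases, from which the polymerase extends, in capitals.
comp71609_c0_seq1 forward primer: ccattccattcacccaaTCAGC
comp71609_c0_seq1 reverse primer: gcatcacaaccatccacAGCAC
The third line is the reverse complement of the reverse primer, with a match to the motif GGNTGNGAN in capitals.
comp71609_c0_seq1 reverse primer, reverse complement: gtgctgtggatGGTTGTGATgc
The motif fits codons for glycine, cysteine and aspartate in a row, a run that class III peroxidases carry close to the distal histidine, and also fits some other codons. It was searched on both strands of the 40 primers of the study and was found in 2 of them. These were this reverse primer and a primer that does not belong to comp71609_c0_seq1. The match is a description and does not assign the unigene to a class.

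The read totals behind the RPKM values (reads per kilobase of unigene, scaled to the reads counted in the library) were 10744829 in 121A and 9552875 in 121C. A single unigene other than these members, with no annotation used here, took 32.3% of the 121A library. The table lists unigenes that the study had called different, so all of them passed the thresholds used here, an absolute log2 ratio of at least 1 and an adjusted p of at most 0.001 (percent called, 100). Of the listed unigenes, 38.0% were higher in 121A and 62.0% in 121C. For the peroxidases the numbers were 2 and 1, and at 3 members this split cannot be set against that background.

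The peroxidase unigene comp71609_c0_seq1 (1192 bp) was counted almost entirely in 121C. It had 3 reads in 121A and 516 reads in 121C. These correspond to 0.234 RPKM (exact Poisson 95% interval 0.0483 to 0.685) and 45.3 RPKM (interval 41.5 to 49.4). The log2 ratio of 121A over 121C was -7.60 (Clopper-Pearson 95% interval -9.88 to -6.04), or 193-fold (interval 65.8 to 941). All intervals cover counting error only. With 1 read worth 0.0781 RPKM of this unigene in 121A, the width of the interval comes from the 3 reads of that library.

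The peroxidase 10 precursor unigene comp123766_c0_seq1 (1275 bp) was the least changed of the members. It had 65 reads in 121A and 17 in 121C, or 4.74 RPKM (interval 3.66 to 6.05) and 1.396 RPKM (interval 0.813 to 2.23). The counting intervals of the libraries do not overlap, and 121A was higher. Listed unigenes had been selected as different between the libraries, so this separation adds no support. Its log2 ratio was 1.77 (interval 0.98 to 2.63), or 3.40-fold, and the lower limit lies below the threshold of 1.

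The peroxidase 55-like unigene comp126036_c0_seq1 (1131 bp) was also higher in 121A. It had 60 reads in 121A and 5 in 121C, or 4.94 RPKM (interval 3.77 to 6.36) and 0.463 RPKM (interval 0.150 to 1.08). Its log2 ratio was 3.42 (interval 2.11 to 5.09), or 10.7-fold (interval 4.33 to 34.0). The whole interval lies above the threshold. No other listed unigene shares a Trinity component, the assembler's group of related sequences, with any of the 3 members.

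**Figure D1:**
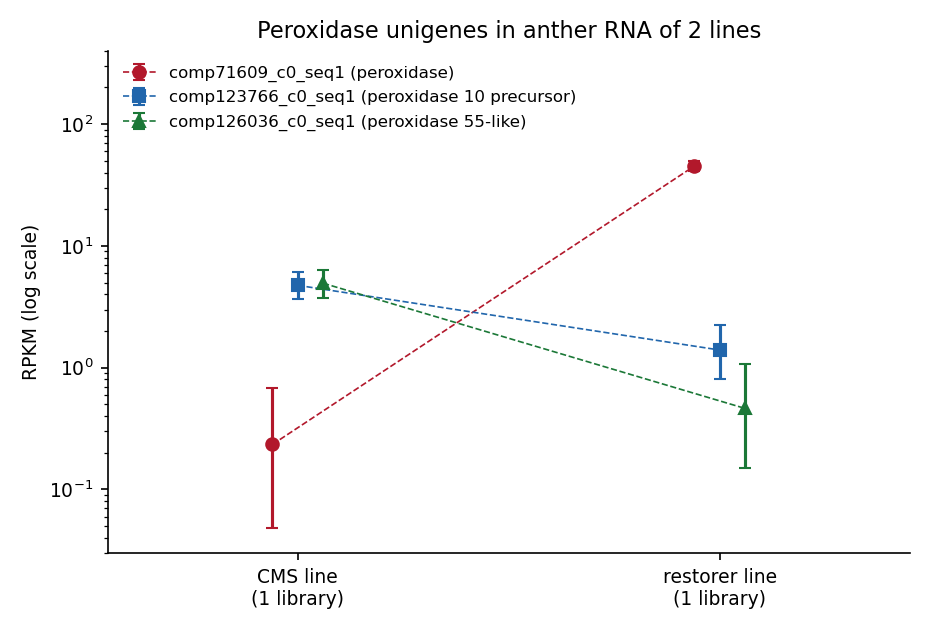
RPKM of the 3 peroxidase unigenes (log scale) in the library of each line, with exact Poisson 95% intervals, which cover counting error only. Dashed lines join the values of 1 unigene. The peroxidase comp71609_c0_seq1 goes from 0.234 RPKM in 121A to 45.3 RPKM in 121C, while the other members go the opposite way.

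The order of the members by RPKM differed between the libraries. In 121A, comp126036_c0_seq1 and comp123766_c0_seq1 stood at nearly the same level, with a ratio of 1.04 (Clopper-Pearson 95% interval 0.720 to 1.501), so they did not differ beyond counting error. The peroxidase comp71609_c0_seq1 lay below both there. The level of comp123766_c0_seq1 was 20.3 times that of comp71609_c0_seq1 in 121A (interval 6.63 to 101). In 121C the order was reversed, and comp71609_c0_seq1 was 32.5 times the level of comp123766_c0_seq1 (interval 20.1 to 56.2). There comp123766_c0_seq1 stood 3.02-fold above comp126036_c0_seq1 (interval 1.07 to 10.5), on 17 and 5 reads.

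The members that were higher in 121A were also compared with each other in a way that needs no library scaling. The ratio of CMS to restorer reads was 3.12 times larger for comp126036_c0_seq1 than for comp123766_c0_seq1 (exact conditional 95% interval 1.02 to 11.5). This interval barely leaves out equality, and it holds no term for variation between plants. Between comp123766_c0_seq1 and comp71609_c0_seq1 the same ratio was 627 (interval 180 to 3427), which describes the opposite directions for which these members were chosen.

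The reads were also summed over these members, which were picked by name and do not stand for the whole family. The 3 peroxidases together held 128 reads in 121A and 538 in 121C, or 9.92 and 47.2 summed RPKM. After division by the library totals, the sum of reads was 4.73-fold higher in 121C (interval 3.89 to 5.78). The peroxidase comp71609_c0_seq1 made up 96.1% of the summed RPKM in 121C and 2.36% in 121A. Without it, the other members held 125 reads in 121A and 22 in 121C, on the same scale 5.05-fold higher in 121A (interval 3.19 to 8.35). Either sum covers these members and not the peroxidase activity of the anther.

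Among all listed unigenes, comp71609_c0_seq1 was abundant in 121C and scarce in 121A. Its RPKM ranked 1208 of 11387 in 121C and 8067 in 121A. Among the 7061 unigenes higher in 121C, its ratio ranked 837, and at the limits of its interval it would rank 210 and 1908. The median absolute log2 ratio of these unigenes was 4.87. Of the 1279 listed unigenes with read sums within 1.5 times that of comp71609_c0_seq1, 797 were higher in 121C. Their median absolute log2 ratio was 2.18, and 17.8% of them had a larger one than comp71609_c0_seq1.

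The members higher in 121A were of middle rank there among the listed unigenes. These are a selected set, so the ranks do not give a place in the whole library. By RPKM, comp126036_c0_seq1 ranked 4362 and comp123766_c0_seq1 ranked 4472 of 11387 in 121A. In 121C they ranked 10516 and 9607. Among the 4326 unigenes higher in 121A, whose median absolute log2 ratio was 2.02, the ratio of comp126036_c0_seq1 ranked 804 (202 and 2011 at the limits of its interval). That of comp123766_c0_seq1 ranked 2582, and its lower limit lies below the smallest absolute ratio in the table. Against unigenes higher in 121A with like read sums, 12.5% of 998 had a larger ratio than comp126036_c0_seq1 and 59.2% of 1044 a larger one than comp123766_c0_seq1.

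**Figure D2:**
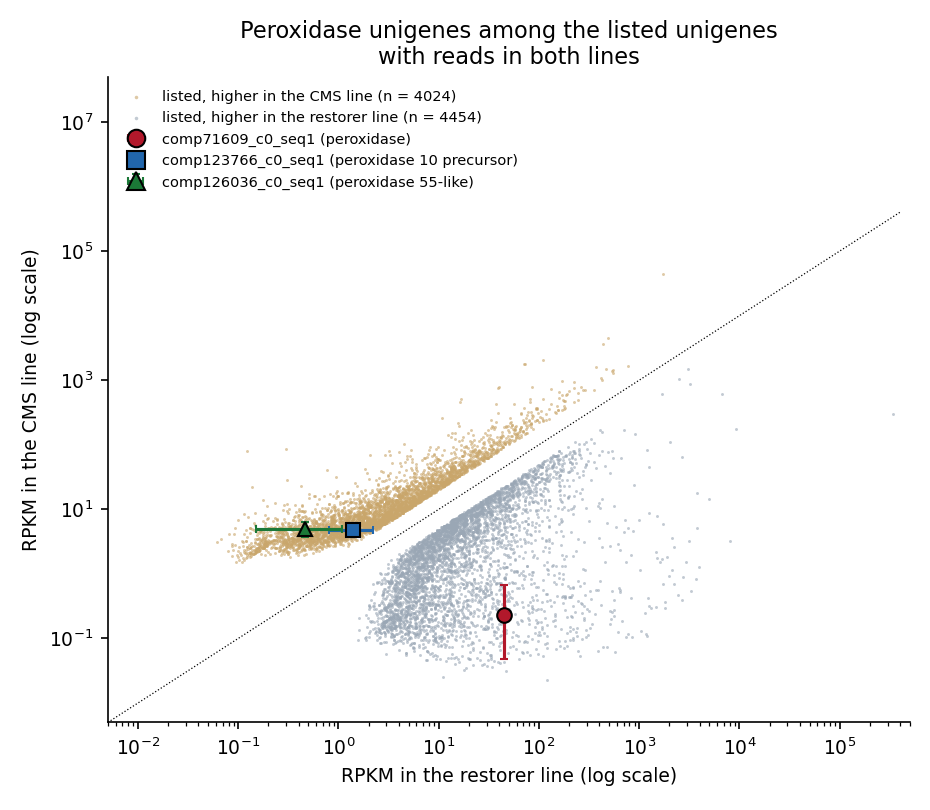
RPKM in 121A against RPKM in 121C (log scales) for the 8478 listed unigenes with reads in both lines, coloured by direction. The 2909 with 0 reads in a line are not drawn, and the dotted line marks equal values. The empty band along it holds the unigenes that the table does not list. Error bars on the 3 peroxidases are exact Poisson 95% intervals, and comp71609_c0_seq1 lies far below the line.

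**Figure D3:**
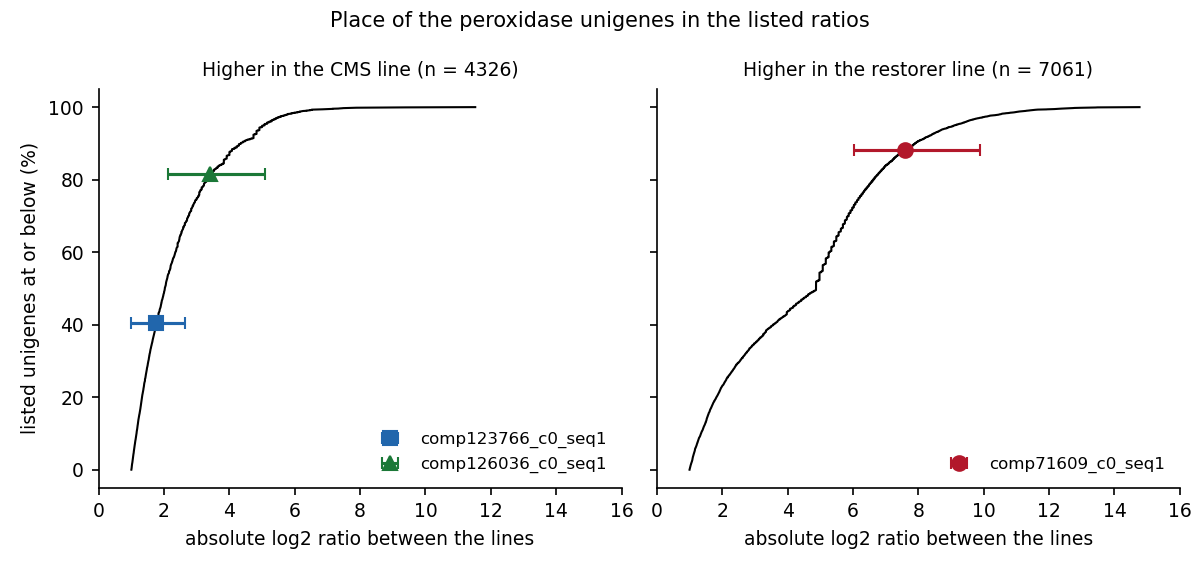
Cumulative share of listed unigenes (%) by absolute log2 ratio, for the 4326 higher in 121A and the 7061 higher in 121C. Symbols place each peroxidase on its curve, with the Clopper-Pearson 95% interval of its ratio. The peroxidase comp123766_c0_seq1 sits in the lower part of its curve, and comp126036_c0_seq1 and comp71609_c0_seq1 in the upper part.

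The tests on the reads compare 2 libraries and not the lines. By the MARS test of the study's methods, which takes reads as random draws, with Benjamini-Hochberg adjustment over all listed unigenes, the adjusted p was 9.74e-120 for comp71609_c0_seq1, 8.40e-07 for comp123766_c0_seq1 and 6.59e-12 for comp126036_c0_seq1. All had been selected by such a test before, and the adjustment covers the listed unigenes only, so these values are not error rates. The exact negative binomial test of edgeR uses the same reads and the same adjustment, and does not undo this selection. It was run with a coefficient of variation that was assumed, not measured, for each pooled library. At 0.4, the adjusted p was 2.07e-08 for comp71609_c0_seq1, which stayed called. It was 0.00434 for comp126036_c0_seq1 and 0.0890 for comp123766_c0_seq1, which did not. In this test 1.59% of the listed unigenes were called higher in 121A and 23.0% higher in 121C. At 0.2, comp126036_c0_seq1 was called as well (edgeR adjusted p 6.69e-06) and comp123766_c0_seq1 was not (0.00236), beside 18.3% and 48.8% of the listed unigenes. With the log2 ratio threshold raised to 2, comp71609_c0_seq1 and comp126036_c0_seq1 passed, beside 47.7% of the listed unigenes higher in 121C and 19.5% higher in 121A.

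Since a single unigene holds so much of the 121A library, other scalings were tried. They moved every log2 ratio towards 121A, by 0.30 with TMM factors, by 0.43 with the top 10 unigenes of each library left out and by 1.09 with median-of-ratios size factors. The directions of the 3 peroxidases were the same under all of these. The log2 ratio of comp71609_c0_seq1 ranged from -7.30 to -6.50, that of comp123766_c0_seq1 from 2.07 to 2.86 and that of comp126036_c0_seq1 from 3.72 to 4.51. TMM and size factors were computed on unigenes that all differ between the lines, so they are rough guides.

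**Figure D4:**
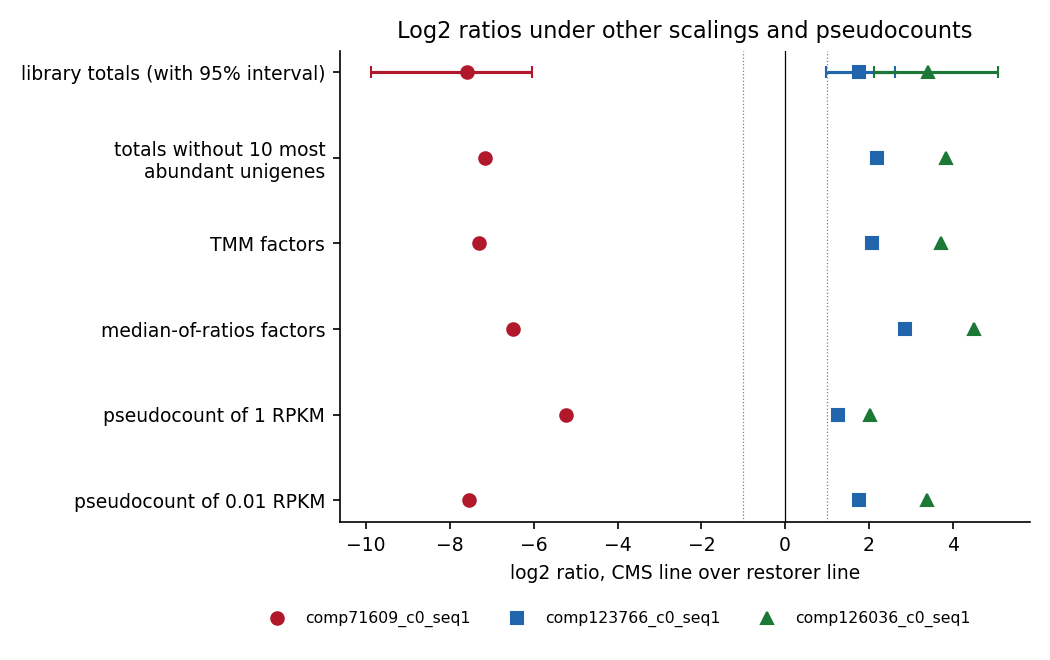
Log2 ratio of 121A over 121C for the 3 peroxidases under the library totals, with Clopper-Pearson 95% intervals, and under other scalings and pseudocounts. Solid and dotted vertical lines mark 0 and the thresholds of -1 and 1. Each peroxidase stays on its side of 0 under the settings drawn, and a pseudocount of 1 RPKM draws all 3 towards it.

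Other genes around hydrogen peroxide were looked up in the part of the annotation used here, in which 1883 unigenes had a best match in a plant. Of these, 16.4% were listed, with 7.43% higher in 121A and 8.98% in 121C. A list of 12 unigenes for redox reactions held ascorbate peroxidase, peroxiredoxin, monodehydroascorbate reductase, glutaredoxin, thioredoxin, glutathione transferases and alternative oxidase. Of these 12, 1 was listed. This was the glutaredoxin family unigene comp111885_c0_seq1, a thiol reductant, with 11 reads in 121A and 116 in 121C and a log2 ratio of -3.57 (interval -4.61 to -2.68). At an assumed coefficient of variation of 0.4 its adjusted p by edgeR was 0.00143.

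Of 8 unigenes annotated as oxidases of amines, aldehydes, glyoxal, reticuline or ascorbate, or as like them, 0 were listed, beside the 16.4% above. Some of these enzymes release hydrogen peroxide. Of 11 unigenes for lignin and other phenolics, the substrates of class III peroxidases, 1 was listed, beside the same 16.4%. It was the cinnamoyl-CoA reductase unigene comp108319_c0_seq1, an enzyme of monolignol synthesis, with 0 reads in 121A and 24 in 121C. The lower limit of its interval puts it at least 6.77-fold higher in 121C. It is a fragment of 241 bp. The levels of the unlisted members of these lists were not analysed here, so they may be equal in the lines or too low for a call.

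A list of unigenes chosen by annotation for anther and pollen was looked up as well, as the lines differ in pollen formation. The annotations of its listed members name no anther or pollen tissue, so these are not used as markers. In the annotation used here there were 8 such unigenes, and 2 of them were listed, 1 in each direction, beside the 16.4%, 7.43% and 8.98% given above. The lipid transfer protein unigene comp106120_c0_seq1 had 1 read in 121A and 91 in 121C. The strictosidine synthase 1-like unigene comp116997_c0_seq1 went the other way with 78 and 24 reads. The annotated tapetum-specific zinc finger protein, the spermidine hydroxycinnamoyl transferases and the pollen allergen were not listed. The list held 2 more unigenes that the study chose for RT-PCR among those that differ, as it did comp71609_c0_seq1, so their place in the table and a shared direction carry no further weight. These were the pectin methylesterase comp62048_c0_seq1, an enzyme of wall pectin, with 0.183 RPKM in 121A and 674 RPKM in 121C, and the MADS-box unigene comp43384_c0_seq1, with 6 and 31 reads. Together, the 4 listed unigenes of this list summed to 7.08 RPKM in 121A and 691 RPKM in 121C. The pectin methylesterase, chosen by the study as differing, alone held 674 RPKM of the sum in 121C. Most of the sum in 121A was the strictosidine synthase 1-like unigene, with 6.19 RPKM. The part of these unigenes in the low level of comp71609_c0_seq1 in 121A was not tested.

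The unigenes most like each member were taken as the nearest by distance in log2(RPKM + 0.1) over the 2 libraries, among 318 other listed unigenes with an annotation. For comp71609_c0_seq1 they were not close, and the distances rest on few reads in 121A. As only part of the annotation was used, closer unigenes may lie outside this pool. The nearest was an anthranilate N-benzoyltransferase unigene, comp101954_c0_seq1, at a distance of 1.69, with 1 read in 121A and 63 in 121C. A plasma membrane proton ATPase (comp101216_c0_seq1, distance 1.74, 1 and 51 reads) and the F-box and wd40 domain unigene comp66553_c0_seq1 (distance 1.86, 0 and 1257 reads) followed. The study chose comp66553_c0_seq1 for RT-PCR among unigenes that differ, as it did comp71609_c0_seq1, so this likeness carries no further weight. For comp123766_c0_seq1 the nearest was a hypothetical protein, comp136936_c0_seq1, at a distance of 0.07, with 45 and 12 reads. It was followed by a Mg-protoporphyrin IX methyltransferase of chlorophyll synthesis, comp112015_c0_seq1, at 0.12, and a ZF-HD homeobox protein, comp111880_c0_seq1, at 0.13. For comp126036_c0_seq1 the nearest was a LOG7 unigene of cytokinin activation, comp153737_c0_seq1, at 0.08 with 22 and 2 reads. The next were the endo-xyloglucan transferase comp145168_c0_seq1, at 0.16 with 42 and 4 reads, and a predicted protein, comp100365_c0_seq1, at 0.23. These are likenesses of level in 2 libraries.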

How the data were processed

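Anther RNA of both lines was sequenced as 1 library each. Base calls were read with CASAVA, reads were filtered by quality and length and assembled with Trinity. The aligner and counting rule are not given in the sources used here. The authors deposited counts, that is whole reads per unigene, and RPKM, which the authors derived from these counts by unigene length and reads per library. The 4 deposited columns of the authors' own comparison (log2 ratio, q-value, call and direction) were not used. Library totals and lengths were recovered from counts and RPKM, since lengths are whole numbers (largest gap 5.5e-05). Log2 ratios were computed from reads over library totals, with 0 reads set at 0.5, and Clopper-Pearson or Poisson 95% intervals. Without replicates, neither the quasi-likelihood test of edgeR nor a DESeq2 test could be fitted. MARS was recomputed, and edgeR 4.0.16 gave exact negative binomial tests and TMM factors, DESeq2 1.42.0 size factors (R 4.3.3), scipy 1.17.1 the intervals. The p-values were adjusted over 11387 unigenes, except under the filter on low RPKM, where the adjustment covered the unigenes that passed it. The tests were also run on simulated data with known changes. Most simulated unigenes were unchanged, unlike those listed here, so that run does not give the error of the calls above.

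Named were the 3 members, listed unigenes of the redox, oxidase and lignin lists (up to 8 a list), and the 3 annotated unigenes nearest to each member. Unigenes of the anther and wall lists are also named. The members and lists were chosen with earlier results of these data known. Annotations were those of 1999 unigenes, the first by name of a longer table, and of the unigenes chosen for RT-PCR. Other scalings, pseudocounts, thresholds, tests, a filter on low RPKM and sums per Trinity component were tried.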

Additional observations from a re-analysis of the deposited data

How the results depend on the processing

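The direction of each of the 3 peroxidase unigenes was the same under the 3 other scalings, both pseudocounts and sums per Trinity component, which left the reads as they were. A pseudocount of 1 RPKM moved the log2 ratio beyond its counting interval for comp71609_c0_seq1, to -5.23, and for comp126036_c0_seq1, to 2.02. Median-of-ratios size factors did so for comp123766_c0_seq1, to 2.86. Of the 2 peroxidases called in favour of 121A, 1 remained called with the log2 ratio threshold raised to 2 (comp126036_c0_seq1), 1 with an assumed coefficient of variation of 0.2 in edgeR's exact test (adjusted p of comp123766_c0_seq1 0.00236) and 0 with 0.4 (adjusted p 0.0890 for comp123766_c0_seq1 and 0.00434 for comp126036_c0_seq1). The exact binomial test and a filter at a mean of 1 RPKM changed none of the 3 calls. No call can be gained, since unigenes that were not called are not in the table. Depth limits comp71609_c0_seq1 through its 3 reads in the CMS line and comp126036_c0_seq1 through its 5 reads in the restorer line. Leaving the unigenes chosen for RT-PCR out of the anther and wall lists, a choice made after seeing the data, lowered the members higher in 121C from 3 to 1 and from 2 to 1. No paired analysis was possible because each line has 1 library.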

Other observations

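Class III peroxidases can act in the cell wall, so unigenes annotated for the wall were looked up as well. No class was assigned to comp71609_c0_seq1. Of 19 wall unigenes in the annotation used, 4 were listed, 3 higher in 121A and 1 in 121C. This stands beside 16.4%, 7.43% and 8.98% of the annotated unigenes with a plant match. At 4 listed unigenes the split cannot be set against that background. Higher in 121A were the endo-xyloglucan transferase comp145168_c0_seq1 (42 and 4 reads in 121A and 121C, log2 ratio 3.22, 95% Clopper-Pearson interval 1.76 to 5.16), the beta expansin comp178367_c0_seq1 (29 and 4 reads, 2.69, interval 1.18 to 4.66) and the beta-galactosidase comp135776_c0_seq1 (18 reads and 1 read, log2 interval 1.34 to 9.38). These enzymes loosen or remodel the wall. Higher in 121C was the polygalacturonase comp218988_c0_seq1, a pectin-cutting enzyme, with 1 and 17 reads (log2 ratio -4.26, interval -9.64 to -1.58). With an assumed coefficient of variation of 0.4, 0 of the 4 were called by edgeR, beside 1.59% (higher in 121A) and 23.0% (higher in 121C) of the listed unigenes. The list also held the pectin methylesterase comp62048_c0_seq1, with 4 and 13085 reads, which the study had chosen for RT-PCR among unigenes that differ and which is left out of these counts. The list was chosen by annotation, and nothing was tested over it.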
